A study of Mus musculus with 12 samples.

Results

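Small leucine-rich proteoglycans are secreted proteins built of leucine-rich repeats, most of which carry sugar chains and bind collagen. The 10 genes described here were Fmod, Dcn, Bgn, Lum, Ogn, Aspn, Prelp, Omd, Epyc and Kera. They were taken by symbol, from rows of the deposited array table to which the platform annotation gives exactly 1 gene symbol. All 10 were found, with 63 of the table's 241576 probesets, among 20352 genes in all. The value of a gene on an array was the median over its probesets, on a log2 scale.

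The samples were heart tissue of C57BL/6J mice labelled as 12 weeks old. The infarcted group held 6 samples of the border zone of a myocardial infarct, taken 2 weeks after surgery, and the sham group held 6 samples of the border zone of a sham infarct at the same time. The strain, age, tissue and interval were the same in both groups, and the labels name no allele, drug or transgene. Biotin-labelled cDNA of each sample was measured on 1 array, and the number of arrays limits the precision. The design text gives 6 biological replicates per condition. The labels do not say whether the 6 samples of a group came from separate animals. The p-values therefore measure the spread between these samples. The tissue was bulk heart, in which more cells of a type and more RNA per cell cannot be told apart.

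The family is sorted by sequence into classes. Decorin (Dcn), biglycan (Bgn) and asporin (Aspn) form class I. Fibromodulin (Fmod), lumican (Lum), keratocan (Kera), Prelp and osteomodulin (Omd) form class II, and epiphycan (Epyc) and osteoglycin (Ogn, also named mimecan) form class III. Decorin and biglycan carry chondroitin or dermatan sulfate, whereas fibromodulin, lumican and keratocan can carry keratan sulfate. The proteins sit on collagen fibrils, where they set fibril diameter and spacing, and several of them bind TGF-beta. In the heart they are made mainly by fibroblasts, while keratocan is best known from the cornea and epiphycan from growth cartilage.

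The family was higher in infarcted tissue, by very unequal amounts. Of the 10 genes 8 passed the threshold as higher and none as lower (limma, adjusted p under 0.05 over all genes), whereas 10.1% of all 20352 genes were higher and 10.2% lower. With each array centred on its median, 1721 genes were higher and 3081 lower, against 2050 and 2074 without centring. The 8 genes were higher under both scalings. All 10 estimates were positive, as were 8537 of those of all 20352 genes. The 10 ran from 0.17 for Ogn to 3.74 for Fmod, with a median of 0.80 against -0.04 over all genes. For 7 of the 10 genes every infarcted array lay above every sham array, which held for 5.97% of all genes.

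**Figure D1:**
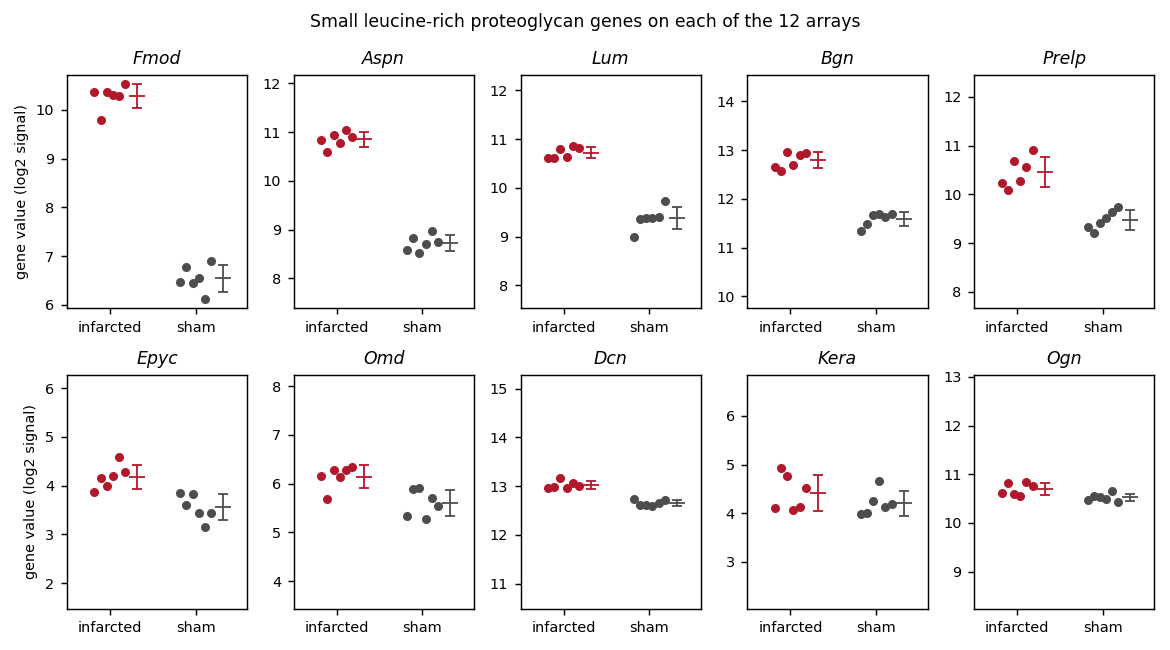
Gene value (log2 signal) of the 10 genes on the 6 infarcted arrays (red, left) and the 6 sham arrays (grey, right), with the mean and SD beside the points. Every panel spans the same number of log2 units. Fmod and Aspn are far apart between the groups, and Ogn, Omd and Kera overlap.

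The mouse family lies in small gene clusters, so genes next to each other could be compared. Prelp and Fmod are neighbours on chromosome 1, and Aspn, Omd and Ogn on chromosome 13. The stretches of 250 bases before the transcription starts of Fmod, Prelp, Aspn and Ogn are shown because these lie in clusters whose genes changed unequally (RefSeq, GRCm38.p6, 5′ to 3′). They lie at chr1:134037004-134037253 on the plus strand for Fmod, chr1:133921402-133921651 on the minus strand for Prelp, chr13:49544193-49544442 on the plus strand for Aspn and chr13:49607765-49608014 on the plus strand for Ogn. Capitals mark matches on either strand to short motifs. These were the TATA box as TATAAA, the motif of AP-1 factors as TGANTCA, that of TEAD factors as GGAATG, that of SMAD factors as CAGACA and that of RUNX factors as TGTGGT.
Fmod: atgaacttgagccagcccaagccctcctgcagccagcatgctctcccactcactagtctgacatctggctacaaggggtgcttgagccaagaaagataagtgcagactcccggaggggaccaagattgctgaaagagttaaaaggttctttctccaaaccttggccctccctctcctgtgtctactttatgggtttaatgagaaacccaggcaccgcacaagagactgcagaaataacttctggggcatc
Prelp: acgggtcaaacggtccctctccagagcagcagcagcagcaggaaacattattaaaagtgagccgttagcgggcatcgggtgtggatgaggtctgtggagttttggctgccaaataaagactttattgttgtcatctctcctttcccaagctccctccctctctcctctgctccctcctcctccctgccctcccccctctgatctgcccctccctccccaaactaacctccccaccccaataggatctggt
Aspn: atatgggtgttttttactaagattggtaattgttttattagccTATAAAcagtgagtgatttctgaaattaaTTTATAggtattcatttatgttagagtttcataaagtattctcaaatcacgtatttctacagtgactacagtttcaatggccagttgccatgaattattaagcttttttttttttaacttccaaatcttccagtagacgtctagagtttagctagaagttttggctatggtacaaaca
Ogn: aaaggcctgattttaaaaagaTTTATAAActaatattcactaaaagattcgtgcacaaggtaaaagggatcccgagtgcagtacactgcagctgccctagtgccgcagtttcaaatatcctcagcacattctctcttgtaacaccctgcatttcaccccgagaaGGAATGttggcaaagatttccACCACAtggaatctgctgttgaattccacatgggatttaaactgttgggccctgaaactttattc

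Matches to these short motifs were few. The stretch of Aspn held 2 matches to TATAAA on opposite strands, 207 and 178 bases before the start. That of Ogn held 2 overlapping ones at 229 and 227 bases, a GGAATG at 86 and a TGTGGT, read on the other strand, at 65. Those of Fmod and Prelp held none of the 5 motifs. Promoter sequences of 8 of the 10 genes were at hand, with 9 start sites, since Epyc had 2 (one of which held the TEAD motif). TATAAA was in 2 of the 9 and in 12.4% of all 32851 promoter stretches, and GGAATG was in 2 and in 12.6%. TGTGGT was in 1 and in 14.0%, and TGANTCA (6.75% of all) and CAGACA (17.1%) were in none. A match is a description of these letters, and a missing match says only that they are not in this stretch.

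The estimates within each cluster were unequal. In the cluster of Dcn, Lum, Kera and Epyc on chromosome 10 the log2 changes, in that order, were 0.37, 1.34, 0.22 and 0.62. In the cluster on chromosome 13 the family gene Ecm2, which lies before Aspn, rose by 0.74 (adjusted p = 6.05e-05). Aspn rose by 2.13 and Omd by 0.54, and Ogn differed by 0.17. By start position the protein-coding genes before Ecm2 and after Ogn were Cenpp and Nol8. They differed by -0.26 (adjusted p = 0.344) and -0.01 (adjusted p = 0.952). The order of starts does not show where a gene ends, so Cenpp may overlap the cluster. On chromosome 1 Optc, the opticin gene of this family, differed by -0.11 (adjusted p = 0.543) beside Prelp at 0.99 and Fmod at 3.74, and Btg2 on the far side of Fmod differed by 0.24 (adjusted p = 0.573). Other flanking genes did pass. Atp2b4, beyond Optc, rose by 0.32 (adjusted p = 0.0118), Btg1, on the Dcn side of the chromosome 10 cluster, rose by 0.46 (adjusted p = 0.000546), and Atp2b3, beside Bgn, fell by 0.27 (adjusted p = 0.0184).

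**Figure D2:**
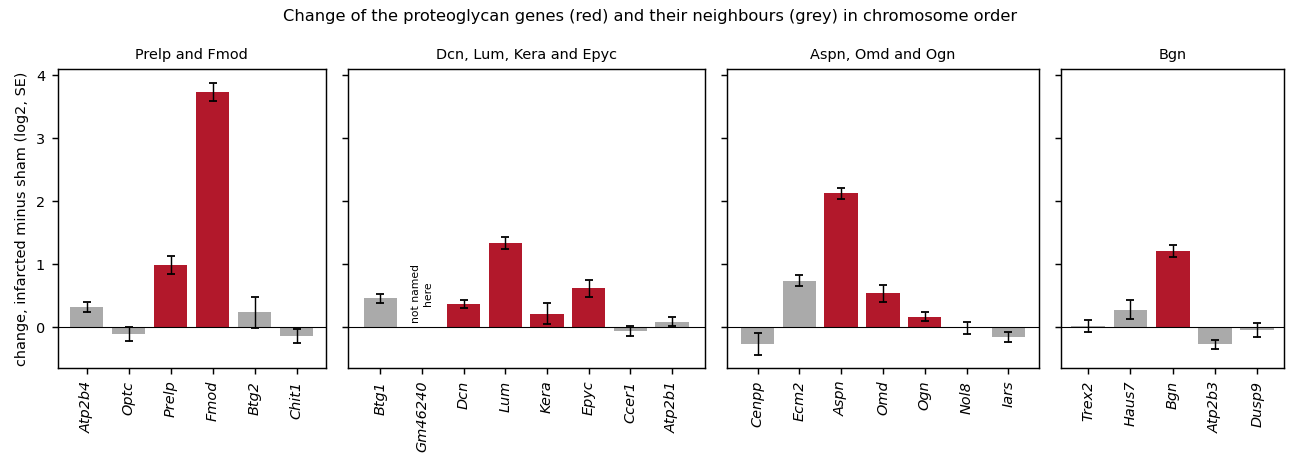
Log2 change (infarcted minus sham, bars with SE) of the 10 genes in red and of their nearest protein-coding neighbours in grey, in chromosome order. Fmod at 3.74 stands between Prelp at 0.99 and Btg2 at 0.24, and Aspn at 2.13 stands between Ecm2 at 0.74 and Omd at 0.54.

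Fmod, whose protein fibromodulin binds fibrillar collagen and guides its cross-linking, had the largest change of the family. Its value ran from 9.80 through a median of 10.34 to 10.53 in infarcted samples, and from 6.12 through 6.51 to 6.90 in sham samples. The groups were 2.91 log2 units apart at their nearest arrays. The rise was 3.74 ± 0.14 (SE, n = 6 per group), or 13.3-fold (95% interval 10.9 to 16.3; adjusted p = 6.64e-10), the 3rd largest of all 20352 genes. All 3 probesets rose, by 3.71 to 3.99.

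Lum, the gene of lumican, which limits fibril width, ran from 10.61 (median 10.71) to 10.86 in infarcted samples and from 8.99 (median 9.39) to 9.72 in sham samples, without overlap. It rose 2.54-fold (log2 1.34 ± 0.10 SE, adjusted p = 5.97e-07), and its 3 probesets rose by 1.34 to 1.88. Fibromodulin and lumican are close relatives that bind the same region of type I collagen, and their changes were set against each other. All 8 pairs were chosen with earlier results of these data known, so the p-values of pairs, here and below, are descriptive. The value of Fmod minus that of Lum, taken within each array, was higher by 2.39 ± 0.14 (SE) in infarcted samples (exact permutation test, two-sided, p = 0.00216, adjusted p = 0.00247 over 8 pairs, of which the 2 with the dim genes Kera and Epyc are not described). The fold change of Fmod was 5.26 times that of Lum. The p of 0.00216 is the smallest that 924 splits of the arrays allow.

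Prelp encodes a class II protein whose basic N-terminus binds heparan sulfate. Its lowest, median and highest values were 10.09, 10.42 and 10.92 in infarcted samples, against 9.20, 9.47 and 9.74 in sham samples. The groups did not overlap, but came within 0.35. The rise was 1.98-fold (log2 0.99 ± 0.14 SE, adjusted p = 0.000157). Of its 4 probesets 3 rose by 0.78 to 1.19, and the other, a dim probeset, differed by 0.19 (adjusted p = 0.754). Relative to Fmod the change of Prelp was -2.75 ± 0.17 (SE; exact permutation p = 0.00216, adjusted p = 0.00247).

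Omd, whose protein osteomodulin is known from bone, gave a weak signal. The values ran from 5.68 (median 6.22) to 6.34 in infarcted samples and from 5.28 (median 5.62) to 5.91 in sham samples. The groups overlapped through infarcted replicate 2, and the other 5 infarcted arrays lay above every sham array. The gene value rose 1.45-fold (log2 0.54 ± 0.13 SE, adjusted p = 0.011). Its 4 probesets did not move alike: 2 rose by 1.42 and 1.5, while 1 differed by 0.46 (adjusted p = 0.125) and 1 by -0.35 (adjusted p = 0.12). The median rested on a rising and a non-rising probeset on all 12 arrays, and leaving out the dimmest probeset gave a rise of 1.02 (adjusted p = 0.000204). Without infarcted replicates 4 and 5 the difference was 0.51 and did not pass (adjusted p = 0.0503). Relative to Fmod the change of Omd was -3.20 ± 0.16 (SE; exact permutation p = 0.00216, adjusted p = 0.00247).

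Kera, the cornea gene keratocan, showed no change that could be detected. Its lowest, median and highest values were 4.07, 4.31 and 4.93 in infarcted samples, against 3.98, 4.15 and 4.67 in sham samples, so the groups overlapped. The difference was 0.22 with a 95% interval from -0.13 to 0.56 (adjusted p = 0.40), and none of its 3 probesets passed. Its mean over all arrays, 4.31, was under 5.26, the 30th percentile of gene means, a range in which signal and background could not be told apart.

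In class I, Aspn had the largest change. Asporin binds collagen and TGF-beta and has been linked to osteoarthritis in humans. Its values ran from 10.60 (median 10.87) to 11.05 in infarcted samples and from 8.51 (median 8.73) to 8.96 in sham samples. The nearest arrays of the 2 groups were 1.63 apart. The rise was 4.37-fold (95% interval 3.81 to 5.01; log2 2.13 ± 0.09 SE, adjusted p = 2.78e-09), the 38th largest of all genes. All 10 probesets rose, by 1.39 to 2.50.

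Bgn encodes biglycan, which carries dermatan or chondroitin sulfate and, when released from matrix, acts on Toll-like receptors. Its lowest, median and highest values were 12.57, 12.80 and 12.97 in infarcted samples, against 11.33, 11.65 and 11.69 in sham samples. The groups were 0.88 apart. The rise was 2.31-fold (log2 1.21 ± 0.09 SE, adjusted p = 6.18e-07), and all 10 probesets rose, by 0.83 to 1.59.

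Dcn, the gene of decorin, which limits fibril thickness and binds TGF-beta, rose far less. Its values ran from 12.96 (median 13.00) to 13.17 in infarcted samples and from 12.60 (median 12.64) to 12.74 in sham samples. The groups did not overlap, but were only 0.23 apart. The rise was 1.29-fold (95% interval 1.18 to 1.42; log2 0.37 ± 0.06 SE, adjusted p = 0.000681), which ranked 1724 among the rises of all genes. Of its 8 probesets 7 rose, by 0.28 to 0.48. The remaining one, the least bright at 9.52, differed by -0.37 (adjusted p = 0.0655). The brightest probesets of Dcn averaged 13.22, and the top of the whole table was 14.37. The part of this ceiling in the small change was not tested.

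Decorin and biglycan are the closest pair in this family, and their genes changed unequally. Within arrays the value of Dcn minus that of Bgn differed by -0.84 ± 0.09 (SE), from 0.07 to 0.42 in infarcted and from 0.92 to 1.41 in sham samples (exact permutation p = 0.00216, adjusted p = 0.00247). The fold change of Dcn was 0.559 times that of Bgn. Dcn also rose less than Aspn. The value of Aspn minus that of Dcn differed by 1.76 ± 0.09 (SE, exact permutation p = 0.00216, adjusted p = 0.00247).

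**Figure D3:**
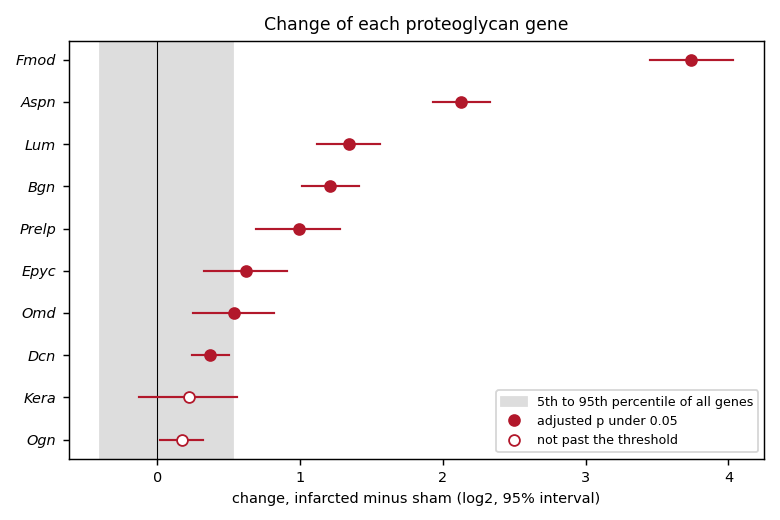
Log2 change (infarcted minus sham) of each gene with its 95% interval, sorted by size. The grey band is the 5th to 95th percentile of all genes, from -0.40 to 0.53. Filled points passed the threshold, and Kera and Ogn did not.

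In class III, Ogn did not pass as a gene, while most of its probesets did. Osteoglycin is a heart matrix protein that has been linked to left ventricular mass in rats and humans. The gene value ran from 10.55 (median 10.68) to 10.84 in infarcted samples and from 10.44 (median 10.51) to 10.65 in sham samples, with overlap. It differed by 0.17 ± 0.07 (SE), 1.13-fold, and did not pass (adjusted p = 0.11), although all 6 infarcted arrays lay above the sham mean. Of its 10 probesets 6 passed as higher, by 0.38 to 0.79, against 6.39% of all 241576 probesets. The 2 probesets that changed least, by 0.10 and 0.16, were in the middle of the brightness order on 9 and 12 of the 12 arrays and so set the median. All other probesets lay outside the middle except 1, on 3 arrays. As the mean of its probesets Ogn rose by 0.41 (adjusted p = 2.72e-05). With each probeset centred on its own mean before the median, a setting chosen after seeing the data, it rose by 0.43 (adjusted p = 1.18e-05).

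The 4 probesets of Ogn that did not pass were not dim, with mean signals of 8.20 to 11.13. The brightest, at 11.89, rose by 0.44 (adjusted p = 0.0017), from 11.99 to 12.27 on infarcted arrays and from 11.58 to 11.72 on sham arrays, without overlap. The probeset with the largest rise, 0.79 (adjusted p = 0.000277), ran from 9.01 to 9.55 on infarcted and from 8.32 to 8.56 on sham arrays. Against Aspn of the same cluster the gene value of Ogn changed by -1.96 ± 0.09 (SE; exact permutation p = 0.00216, adjusted p = 0.00247), and by -1.62 with the mean over probesets.

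Epyc, the cartilage gene epiphycan, passed the threshold from signals near the bottom of the scale. Its lowest, median and highest values were 3.87, 4.18 and 4.59 in infarcted samples, against 3.16, 3.53 and 3.86 in sham samples. The groups did not overlap, but the nearest arrays were separated by less than the rounding used here. The value rose by 0.62 ± 0.13 (SE; adjusted p = 0.00436). All 8 probesets were dim, under 5.58 (the 30th percentile of probeset means). Only 2 passed as higher, by 0.58 and 1.2, and the other 6 differed by -0.11 to 0.21. The rise was 0.29 as the mean of the probesets (adjusted p = 0.0039) and 0.19 with centred probesets (adjusted p = 0.0347).

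**Figure D4:**
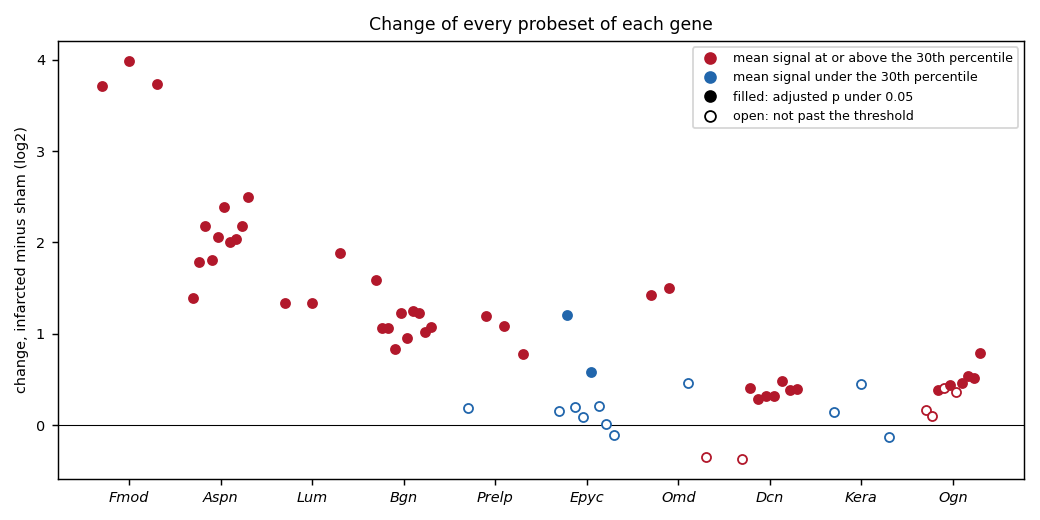
Log2 change (infarcted minus sham) of each of the 63 probesets by gene, filled where the adjusted p over all probesets was under 0.05. Red marks a mean signal at or above the 30th percentile and blue a dimmer one. All probesets of Fmod, Aspn, Lum and Bgn are filled, 2 of 4 of Omd and 2 of 8 of Epyc are, and 4 of the 10 of Ogn are open.

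Over the family, 46 of the 63 probesets passed as higher and none as lower, beside 6.39% higher among all probesets. Of the 50 at or above the 30th percentile of brightness 44 were higher (8.25% of all such probesets), and of the 13 dimmer ones 2 were (2.06% of all such probesets). Probesets of a gene share its transcripts, so they are not replicates of the comparison. The SD between samples ran from 0.08 (Dcn) to 0.37 (Kera) in infarcted and from 0.06 (Dcn) to 0.27 (Fmod and Omd) in sham samples. None of the 10 genes differed in spread between the groups at an unadjusted p under 0.05, and the smallest p was 0.0563 for Ogn (exact permutation test of deviations from the group median).

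Other genes of the wider family mostly did not pass. Of 8 such genes 2 rose and none fell, with a median of 0.11 (10.1% of all genes rose). Chad, the gene of chondroadherin, a cartilage protein, rose 3.27-fold (adjusted p = 6.07e-05), with 7.71 ± 0.49 in infarcted and 6.00 ± 0.36 in sham samples (SD, n = 6 each). Ecm2 rose 1.68-fold. The other 6, Optc, Chadl, Nyx, Tsku, Podn and Podnl1, differed by -0.27 to 0.25 and did not pass.

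Of the collagens that these proteins bind, 13 of 14 rose and none fell, with a median of 1.19 (10.1% of all genes rose). Col12a1, of a collagen that coats fibrils, rose 9.86-fold (adjusted p = 2.09e-09), and Col14a1, of a collagen of the same kind, 4.57-fold (adjusted p = 2.95e-08). Col1a1, of the main fibrillar collagen, rose 5.87-fold (adjusted p = 1.58e-08), and Col5a2, of a collagen in the fibril core, 3.05-fold (adjusted p = 1.35e-07). The remaining gene, Col11a2, differed by -0.04 (adjusted p = 0.847). Side by side, Fmod (3.74) changed more than Col1a1 (2.55), and Bgn (1.21) and Dcn (0.37) less. These differences between lists were not tested.

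**Figure D5:**
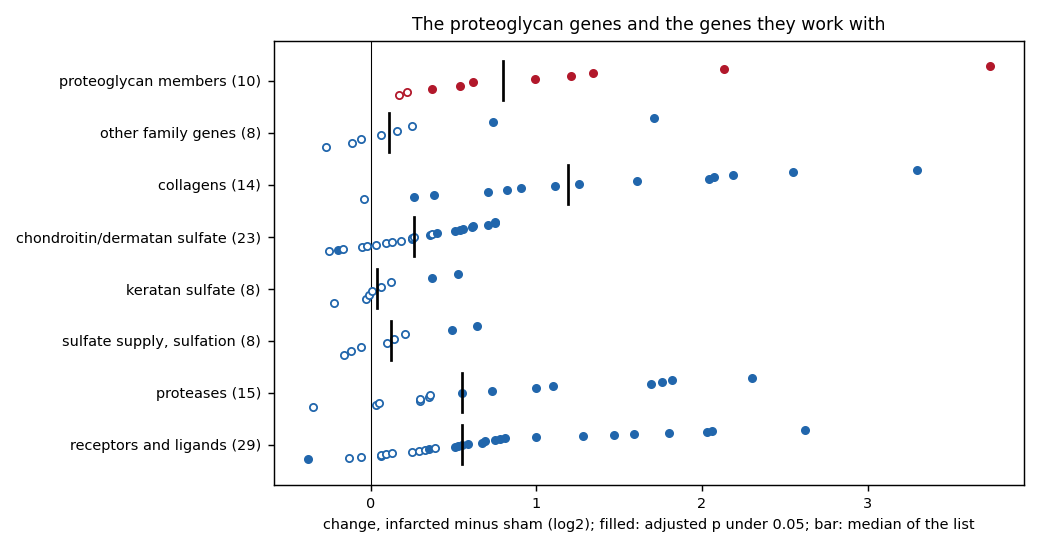
Log2 change (infarcted minus sham) of each measured gene of the proteoglycan family and of the gene lists around it, filled where the adjusted p was under 0.05, with the median of each list as a bar. The medians are 0.80 for the 10 proteoglycan genes, 1.19 for the collagens and 0.26 for chondroitin and dermatan sulfate synthesis.

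Genes for the enzymes that build the sugar chains had medians nearer to that of all genes. Of 23 genes for the linker and for chondroitin and dermatan sulfate 10 rose and 1 fell, with a median of 0.26 (10.1% of all genes rose). Dsel and Dse, whose enzymes turn chondroitin into dermatan sulfate, rose 1.68-fold each (adjusted p = 2.52e-06 and 2.65e-05). Chsy1, a chondroitin synthase, rose 1.52-fold (adjusted p = 3.9e-05), and Xylt1, which starts the chain on the core protein, 1.64-fold (adjusted p = 5.95e-05). Fam20b, a kinase of the linker sugar xylose, fell by 0.20 on the log2 scale (adjusted p = 0.0252).

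Beside 10.1% of all genes that rose, 2 of 8 keratan sulfate genes did, with a median of 0.04. They were B4galt1, a galactosyltransferase (1.29-fold, adjusted p = 0.00447), and Chst1, a keratan sulfate sulfotransferase (1.45-fold, adjusted p = 0.0264). Of 8 genes for sulfate supply and tyrosine sulfation 2 rose, Papss1, which makes the sulfate donor (1.55-fold, adjusted p = 0.000423), and Slc35b3, which carries it into the Golgi (1.40-fold, adjusted p = 0.00734). The tyrosine sulfotransferase genes Tpst1 and Tpst2 differed by 0.21 and 0.14 and did not pass (adjusted p = 0.417 and 0.291).

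Of 15 genes listed for proteases that process or cleave the core proteins 8 rose and none fell, with a median of 0.55 (10.1% of all genes rose). Pcolce, the gene of an enhancer protein and not of a protease, is among the 15. Bmp1, which trims the propeptide of biglycan, rose 2.15-fold (adjusted p = 6.83e-06). The metalloproteinases Mmp14 and Mmp2 rose 3.53-fold and 3.22-fold (adjusted p = 4.28e-07 and 1.58e-07), and Ctsk, the gene of cathepsin K, 3.38-fold (adjusted p = 1.35e-07).

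Of 29 measured genes for receptors and partners of these proteins 18 rose and 1 fell, with a median of 0.55 (10.1% of all genes rose). Fn1 (fibronectin, 6.13-fold), Eln (elastin, 4.16-fold), Ccn2 (4.08-fold) and Tgfb3 (2.78-fold) had the smallest p (adjusted p from 6.23e-08 to 3.59e-07). Tlr4, a receptor of soluble biglycan and decorin, rose 1.71-fold (adjusted p = 0.000267), and Tlr2 differed by 0.09 (adjusted p = 0.558). Tgfb1 differed by 0.29 (adjusted p = 0.40). Erbb4, a receptor to which decorin binds, fell by 0.38 (adjusted p = 0.00691).

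Markers of some cell types rose beside the family, while those of others did not (10.1% of all genes rose and 10.2% fell). Of 11 fibroblast markers 9 rose and 1, Dpep1, fell, and their mean level was 9.68 to 10.02 in infarcted and 8.68 to 8.86 in sham samples. All 8 myofibroblast markers rose (mean level 9.93 to 10.32 in infarcted, 8.09 to 8.49 in sham samples), as did 10 of 12 tendon and cartilage markers (7.16 to 7.63, against 5.95 to 6.12). All 9 macrophage markers rose, with a mean level of 8.80 to 9.21 against 7.97 to 8.28. None of 8 endothelial markers (10.15 to 10.39, against 10.06 to 10.33) and none of 10 cardiomyocyte markers (13.20 to 13.29, against 13.33 to 13.38) passed. Of 8 smooth muscle and pericyte markers 5 rose, and of 8 valve markers 4 rose and 1, Prox1, fell. Of 9 epicardial markers 1 rose (Aldh1a2), of 5 measured lymphocyte markers 1 (Cd79b), and of 3 measured erythroid markers 1 fell (Alas2). The lists share Col1a1, Col1a2, Fn1, Chad, C1qa, C1qb and Kdr with the pathway lists above and hold none of the 10 proteoglycan genes. They also share genes among themselves, since Postn and Cthrc1 are in the valve list and Acta2 in the smooth muscle list as well as in the myofibroblast list. Wif1, which did not pass, is in both the valve list and the tendon and cartilage list. The part of these cells in the changes of the proteoglycan genes was not tested. None of 7 adipocyte markers passed, and all 7 were highest among the infarcted arrays in replicate 5. That array was also highest in 7 of 9 epicardial markers (mean level 6.81, against 5.72 to 5.98 on the other 5 infarcted arrays) and in 4 of the 10 proteoglycan genes, and lowest in 7 of 10 cardiomyocyte markers. Of 6 atrial markers 1 rose (Nppa) and 1 fell (Stard10), and their mean level was highest in infarcted replicate 4 (8.85). Without those 2 arrays 7 of the 10 proteoglycan genes were higher. Omd no longer passed, at a difference of 0.51 with fewer arrays, against 0.54 with all of them.

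Similarity between genes across samples was described by the correlation of deviations from the group mean over the 12 arrays, among 14238 genes outside the family that were not dim. These values come from a search over all those genes and are given with no test. Within the family the highest were 0.84 for Bgn and Prelp and 0.80 for Bgn and Lum, and the lowest was -0.49 for Fmod and Ogn. The genes most like Bgn were Antxr1, Laptm5 and Adamtsl2 (0.94, 0.93 and 0.93), and those most like Prelp were Ltbp4, Cd248 and Clip3 (0.95, 0.92 and 0.90). For Aspn they were Vamp5, Sparcl1 and Gm3138 (0.96, 0.95 and 0.92), and for Fmod Tmem9, Vmn2r-ps54 and Slc38a7 (0.90, 0.89 and 0.89). For Lum they were Sox18, Pcbp3 and 2200002D01Rik (0.94, 0.93 and 0.92), and for Dcn Prmt2, Krtap1-3 and Lrrk1 (0.93, 0.91 and 0.86). For Omd they were Slc50a1, Dctn2 and Rbl1 (0.94, 0.90 and 0.89), and for Epyc Cdkn1b, Cry1 and Net1 (0.91, 0.88 and 0.85).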

How the data were processed

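Total RNA of 6 infarcted and 6 sham samples was extracted with Trizol and labelled with biotin after a whole-transcript kit, per the labels' protocols. Affymetrix Power Tools is the one program in the submitters' processing notes, with no version. How probes were summarised, corrected and normalised is not given in the sources used here. Values deposited by the authors were read as log2 signal from their range (1.52 to 14.37). The array medians were nearly equal, 7.04 to 7.06 in infarcted and 7.00 to 7.03 in sham samples, so a shift of all genes would not be seen. Arrays correlated between 0.952 and 0.978, and none of the 66 pairs was identical.

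Of 241576 rows 212097 had 1 gene symbol, 4475 had several and 25004 had none. Of 20416 platform symbols 2742 were updated through RefSeq synonyms and 53 were kept, which gave 20352 genes. Each gene value was the median over its probesets. The infarcted and sham groups were then set against each other by limma 3.58.1 (R 4.3.3; lmFit, eBayes). P-values were two-sided and adjusted after Benjamini and Hochberg, over all genes or, for probesets, over all rows, at a threshold of 0.05. Fold changes are infarcted over sham. Every adjusted p is from this fit unless an exact permutation test is named. The scripts were tested on simulated data. Figures were drawn with matplotlib 3.10.9.

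The members, gene lists and pairs were chosen with earlier results of these data known. From each list around the family, up to 4 called genes of smallest p were named, and 1 called in the opposite direction where there was one. The 3 most similar genes were named per called member. Tlr2, Tlr4, Tgfb1, Tpst1, Tpst2, Col11a2, other family genes and markers outside this rule, and the genes beside the clusters were named in addition, after their values were seen. Protein sequences were not used here. Both groups carry replicate numbers 1 to 6, and no label ties a number to a shared animal or day. The correlation of deviations between same-numbered arrays was -0.05 to 0.10, so no block was used. Differences between 2 proteoglycan genes were tested within arrays by exact permutation of the 12 arrays, two-sided. Alternatives covered the probeset summary, dim rows and genes, scaling, variance prior, block and single arrays. Centring of probesets was added after seeing the data. No label gives a batch.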

Additional observations from a re-analysis of the deposited data

Results flagged for a closer look

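In 20 groups of 6 arrays (10 genes, infarcted and sham), 2 single values lay far from the rest of their group, where chance gives about 1 in 20. Both were on infarcted replicate 2. Fmod was 9.80 there, against 10.29 to 10.53 on the other 5 infarcted arrays, and Omd was 5.68, against 6.13 to 6.34. Without that array the rise of Fmod was 3.83 and that of Omd 0.63 (limma, adjusted p = 9.76e-10 and 0.0022).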

How the results depend on the processing

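Under 21 alternatives (mean in place of median, centred probesets, dim rows or dim genes left out, 2 scalings, another variance prior, the replicate block, each array left out, and infarcted replicates 4 and 5 left out), 7 to 9 of the 10 genes were higher, against 8. Over all genes the count called higher ran from 1667 to 2734, against 2050. The count called higher or lower ran from 3123 to 5739, against 4124. With dim rows or dim genes left out only 8 of the 10 could be tested, and 7 of these were higher. Fmod, Aspn, Lum, Bgn, Prelp and Dcn passed under all 21, with rises of 3.65 to 3.83, 2.04 to 2.18, 1.26 to 1.52, 1.13 to 1.25, 0.81 to 1.19 and 0.28 to 0.39. With 1 array left out the same 8 genes were higher each time. Ogn passed under 3 alternatives, the mean, centred probesets and quantile normalization (0.21, adjusted p = 0.0464). Omd was lost under 1, without infarcted replicates 4 and 5 (0.51, adjusted p = 0.0503), a fit with fewer arrays. Epyc kept its call in the 19 fits that tested it, at 0.19 to 0.68, and Kera passed in none. With the replicate block 8 genes and 42 of the 63 probesets were higher, against 46, and the block changed no call of the 10 genes. The 8 pairs differed under each array left out, and the difference of Epyc and Ogn turned to -0.12 with the mean over probesets. The pairs of Epyc and Ogn and of Kera and Lum could not be computed with dim rows left out. Both pairs hold a dim gene and carry little information. Low signal limits Kera, Epyc and part of Omd.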

Other observations

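Infarcted replicate 2 was the lowest of the infarcted arrays in 6 of the 10 proteoglycan genes, and in 5 of 11 fibroblast markers. Of the 14 collagens 5 were lowest there and 6 in infarcted replicate 1, and of 8 myofibroblast markers 3 were highest in infarcted replicate 2. Infarcted replicate 3 was the highest in 12 of the 14 collagens but in 2 of the 10 proteoglycan genes. Among sham samples replicate 1 was the lowest in 9 of the 14 collagens and in 3 of the 10 proteoglycan genes. These counts were made after the values were seen, and no test was run on them.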
